A study of Mus musculus with 20 samples.

Results

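The response of mouse bone marrow-derived macrophages to the LXR agonist GW3965 was measured in cells that had been grown with SGC0946, an inhibitor of the histone methyltransferase DOT1L. The comparison takes 7 of the 20 RNA-seq libraries of the study, chosen by treatment label and by no measured value: 3 libraries labelled SGC0946+GW3965 (mice 1 to 3) and 4 labelled SGC0946 (mice 1 to 4), which were left unstimulated. The marrow of C57BL/6 mice was grown for 7 to 8 days with M-CSF supplied by 15% L929-conditioned medium. SGC0946 was present at 1 µM during that culture, so the unstimulated cells carry it too, and GW3965 was given at 2 µM for 17 h. The corresponding arm with DMSO in place of SGC0946 has 3 libraries with GW3965 and 4 without, and the other 6 libraries are of cells given LPS. No vehicle for GW3965 is named in the labels, and the age and sex of the mice are not given there. Each library of a group came from another mouse by its label, and libraries of the 2 arms share mice. The 7 libraries held totals of 8.5 to 12.02 M counts in the transcripts used, 1 for each gene symbol.

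LXRα (Nr1h3) and LXRβ (Nr1h2) are nuclear receptors for oxysterols that bind DNA as heterodimers with RXR. In macrophages they are known for switching on export of cholesterol to lipoproteins, the synthesis and desaturation of fatty acids through SREBP-1c, and genes for the clearance of dead cells, and for holding down inflammatory genes. GW3965 is a synthetic ligand of both receptors. DOT1L methylates histone H3 over the bodies of transcribed genes, and SGC0946 blocks the enzyme, so the level of its transcript says nothing of its activity.

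The DNA element bound by LXR and RXR is commonly written as DR4, a direct repeat of AGGTCA with 4 bases between the copies. Promoter sequence of 4 of the genes that rose is shown because these windows share a run of letters that few other promoters hold. Each is the 250 bases before a RefSeq start on build GRCm38.p6, given 5′ to 3′ on the strand of the gene, and the capitals mark TGACC followed, after any 3 bases, by AGTAACC. In Acsl3 the capitals extend by 1 letter, which belongs to an overlapping match to the direct repeat with 2 mismatches. Abca1 (cholesterol exporter) is at chr4:53159896-53160145 on the minus strand, and Fasn (fatty acid synthase) at chr11:120824548-120824797 on the minus strand. Srebf1 (SREBP-1) is at chr11:60210472-60210721 on the minus strand, before the most downstream of its 3 listed starts, and Acsl3 (acyl-CoA synthetase) at chr1:78657575-78657824 on the plus strand.
Abca1: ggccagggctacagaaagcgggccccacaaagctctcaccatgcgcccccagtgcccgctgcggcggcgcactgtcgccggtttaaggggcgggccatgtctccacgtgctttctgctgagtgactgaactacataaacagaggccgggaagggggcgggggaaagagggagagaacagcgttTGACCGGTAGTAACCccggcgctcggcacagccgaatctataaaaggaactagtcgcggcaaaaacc
Srebf1: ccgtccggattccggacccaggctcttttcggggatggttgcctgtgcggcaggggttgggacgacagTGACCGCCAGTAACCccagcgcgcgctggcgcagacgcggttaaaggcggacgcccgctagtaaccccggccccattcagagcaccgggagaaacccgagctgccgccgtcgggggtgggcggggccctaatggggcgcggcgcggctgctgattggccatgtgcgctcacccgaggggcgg
Fasn: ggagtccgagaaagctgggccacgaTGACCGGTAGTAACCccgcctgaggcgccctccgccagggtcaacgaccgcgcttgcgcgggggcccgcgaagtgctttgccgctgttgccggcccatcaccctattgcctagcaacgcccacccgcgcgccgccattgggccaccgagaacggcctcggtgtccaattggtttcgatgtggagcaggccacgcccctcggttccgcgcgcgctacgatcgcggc
Acsl3: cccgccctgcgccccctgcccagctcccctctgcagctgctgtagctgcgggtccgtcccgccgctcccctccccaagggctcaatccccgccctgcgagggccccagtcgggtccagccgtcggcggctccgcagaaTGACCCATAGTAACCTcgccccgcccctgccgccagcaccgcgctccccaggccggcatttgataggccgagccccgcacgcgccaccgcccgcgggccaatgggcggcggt

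The shared letters lie 67 to 53 bases before the start in Abca1, 182 to 168 in Srebf1, 225 to 211 in Fasn and 112 to 98 in Acsl3. Searched on both strands of all 32851 RefSeq promoter windows of 300 bases (250 before to 50 after a start), this pair of runs was found in 6 windows of 5 genes, which is 0.0183% of windows. The fifth gene, LOC115486416, was not among the genes tested. The letters were read off these promoters after their genes were known to have risen, so the match is a description with no test. The run is not separate from DR4. Read on the other strand, DR4 is TGACCT, 4 bases and TGACCT, and TGACC and TAACC of the run lie at that spacing. In Acsl3 this stretch came within 2 mismatches of DR4, and in Abca1, Srebf1 and Fasn it did not. The DR4 repeat with up to 2 mismatches was in 3.02% of all windows and in 2.22% of the windows of tested genes. It was in 3.03% of the windows of genes that rose and in 2.92% of those of genes that fell. Promoters of Abcg1, Scd1 and Scd2 were not analysed here.

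GW3965 changed 291 of 12013 genes tested in SGC0946-grown cells, 2.42% of them, at an adjusted p under 0.05 (edgeR quasi-likelihood test, Benjamini-Hochberg adjustment over all genes). Of these, 158 rose (1.32%) and 133 fell (1.11%). Most changes were small. The median called rise was 0.46 and the median called fall -0.45 on the log2 scale, and 30 genes rose and 19 fell by 2-fold or more. In 263 of the 291 genes no library of one group lay within the range of the other, against 10.9% of all genes tested whose groups did not overlap. The response ran from Apoc1, Car2 and Scd1 at the top to Cxcl9, Ltf and Cx3cr1 at the bottom. The call of Cxcl9, a chemokine gene at 0.555 CPM unstimulated (edgeR adjusted p = 0.0433), was lost without SGC0946 replicate 3 or 4 (0.061 and 0.136) or SGC0946+GW3965 replicate 1, 2 or 3 (0.101, 0.1 and 0.147). Where libraries were scaled to their totals alone, 120 genes rose and 186 fell, so the higher share went from 54.3% to 39.2%. The count called was 181 without SGC0946 replicate 2, 149 without SGC0946 replicate 4, 134 without SGC0946+GW3965 replicate 1 and 485 without SGC0946+GW3965 replicate 2. The 291 calls come from a fit in which all 20 libraries share 1 estimate of the spread. Fitted on the compared groups alone, 88 genes were called, 66 higher and 22 lower. Of the 133 that fell, 7 are Ugt1a genes, which share exons, so their calls may rest on the same reads.

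Libraries of the same mouse resembled each other. The first principal component of the 7 libraries held 40.7% of their variance and set both libraries of mouse 1 (-13.35 and -17.64) against those of mice 2 and 4 (9.73 to 13.35). The second held 23.8%. Deviations from the group means were correlated within a mouse (r = 0.77, 0.71 and 0.55 for mice 1 to 3 across 8252 genes, which are not independent replicates) and lay between -0.57 and -0.16 for libraries of different mice. Mouse 4 has an unstimulated library and no GW3965 library. With mouse 4 left out and no block for mouse, 135 genes were called, 88 higher and 47 lower, and 133 of them were among the 291. With mouse 4 left out and mouse as a block, 283 genes were called, 230 of them among the 291. The block with mouse 4 kept called 396 genes, 272 of them among the 291.

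Many genes for cholesterol efflux and lipoprotein handling were higher with GW3965. Of 15 listed, 11 were tested and 7 rose (Abca1, Abcg1, Mylip, Arl4c, Lpl, Apoc1 and Apoc2), none fell and 4 did not pass, with a median of 0.83 against 0.00 over all genes tested. Abca1, which loads cholesterol onto lipid-poor apolipoproteins, stood at 687, 936, 693 and 862 CPM (counts scaled to library size with TMM factors) in the unstimulated libraries of mice 1 to 4. With GW3965 it stood at 2189, 3137 and 2511 CPM in mice 1 to 3. The lowest treated library was above the highest unstimulated one by a wide margin, and within each mouse the log2 ratio was 1.67, 1.75 and 1.86. The fitted rise was 1.72 ± 0.11 (log2 fold change ± SE; edgeR adjusted p = 4.63e-09). Abcg1, which passes cholesterol to HDL, was at 458, 436, 495 and 413 CPM and reached 1481, 1595 and 1322 CPM, a rise of 1.70 ± 0.07 (adjusted p = 7.54e-13). Per length, the counted transcripts of Abca1 and Abcg1 stood at nearly the same level, 256 ± 43.6 and 253 ± 17.2 RPKM with GW3965 (SD, n = 3).

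Mylip encodes the ubiquitin ligase IDOL, which acts on receptors for lipoproteins. Its level went from 62.7, 48.7, 53.5 and 59.3 CPM to 206, 183 and 172 CPM, a rise of 1.74 ± 0.12 (edgeR adjusted p = 4.63e-09) with no overlap. Arl4c, a small GTPase gene of the ABCA1 pathway, rose by 1.13 ± 0.08 (adjusted p = 5.59e-09). Lpl, the lipoprotein lipase gene, was at 2072, 1653, 2637 and 2080 CPM and rose to 3804, 2893 and 4564 CPM (0.83 ± 0.14; adjusted p = 0.00183). Here mouse 2 was the lowest and mouse 3 the highest in both groups.

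Among the apolipoprotein genes, Apoc1 had the largest rise of any gene called, from a very low level. It was at 0.174, 0.820, 0.0903 and 0.285 CPM and reached 2.23, 5.78 and 1.41 CPM (3.11 ± 0.50; edgeR adjusted p = 0.000865). Apoc2, the lipoprotein lipase cofactor gene, rose by 0.66 ± 0.16 (adjusted p = 0.0323), and 79.5% of its exon length is shared with Gm44805, so its reads are uncertain. Its call was lost without SGC0946 replicate 2, 3 or 4 (0.0784, 0.0719 and 0.0565) and without SGC0946+GW3965 replicate 1 or 2 (0.162 and 0.0987). Apoe was at 761, 1146, 664 and 1061 CPM and at 1227, 1955 and 1105 CPM. In each mouse it was higher with GW3965 (log2 ratios 0.69, 0.77 and 0.74), but mice 2 and 4 started high and the groups overlapped. The unpaired fit did not pass (0.65 ± 0.19; adjusted p = 0.0832), and the fit with mouse as a block did (0.0381), as did the one without SGC0946+GW3965 replicate 3 (0.0496). The phospholipid transfer protein gene Pltp (0.25 ± 0.15) and the lysosomal cholesterol transporter genes Npc1 and Npc2 (0.12 ± 0.04 and 0.01 ± 0.05) did not pass. Abcg4, Abcg5, Abcg8 and Apoc4 were under the count minimum.

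**Figure D1:**
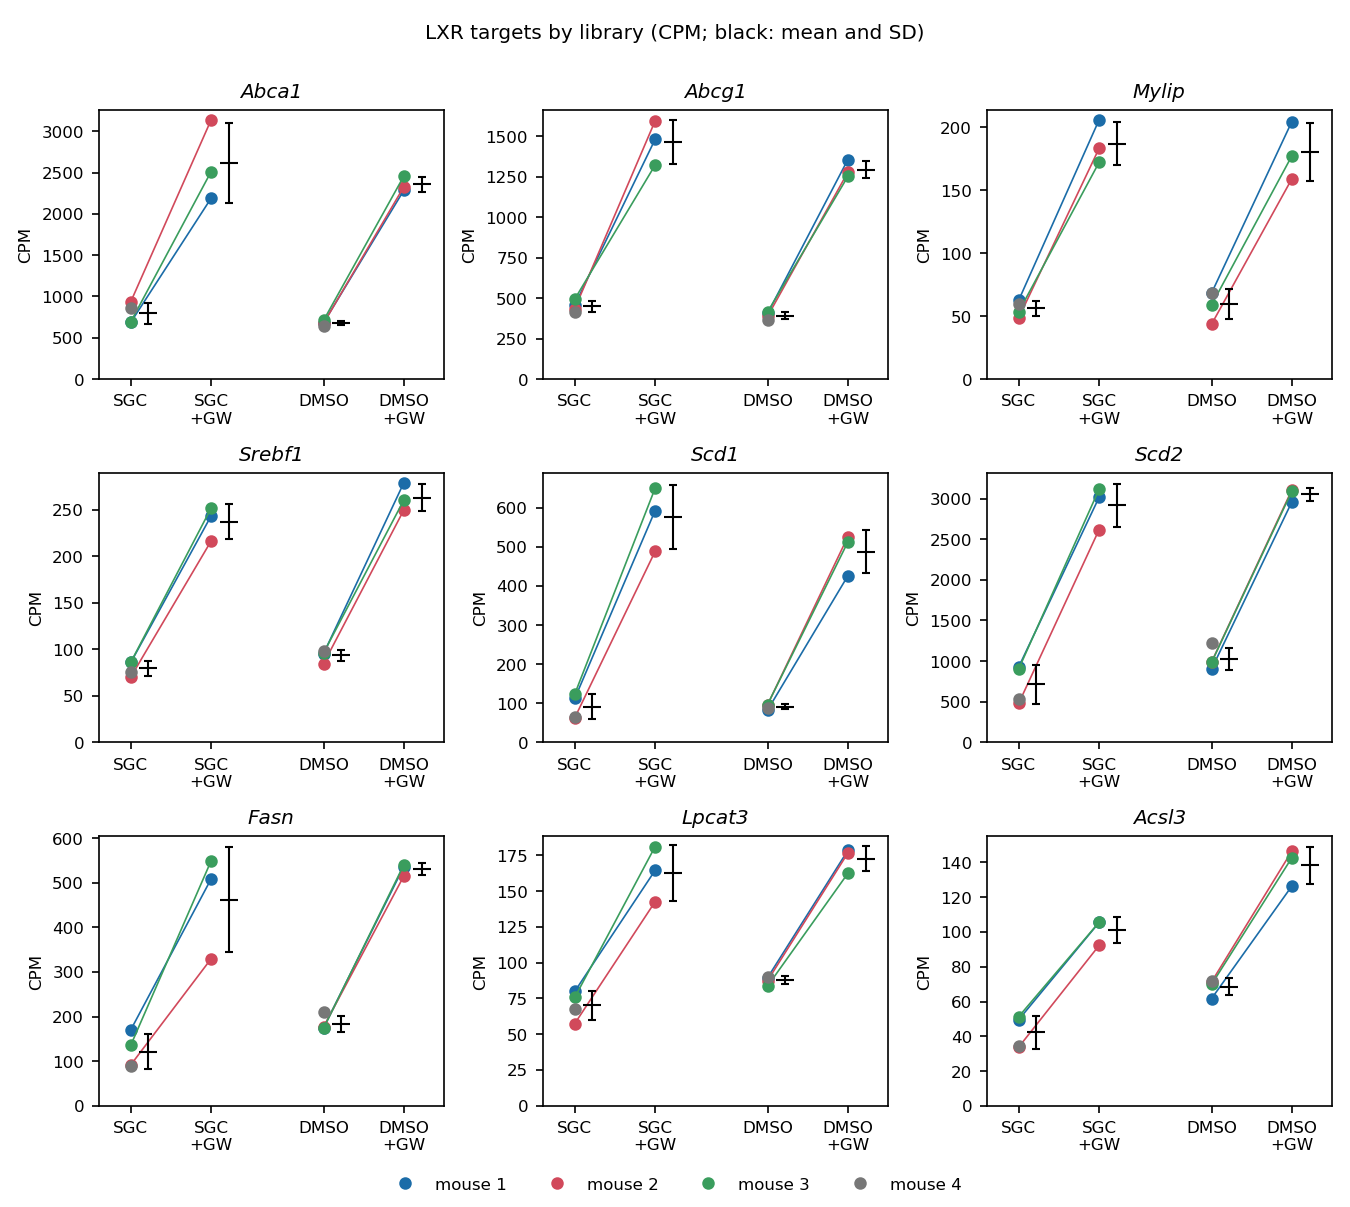
CPM of 9 LXR target genes in each library of the SGC0946 (SGC) and DMSO arms, unstimulated and with GW3965 (GW). Points are libraries coloured by mouse, lines join the libraries of a mouse, and the black marks are the mean and SD (n = 4 unstimulated, n = 3 with GW3965). In every panel the 3 SGC0946+GW3965 libraries lie above the 4 SGC0946 libraries, as for Abca1 with 2189 to 3137 against 687 to 936 CPM.

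Of 22 lipogenic genes listed, 19 were tested, 11 rose, none fell and 8 did not pass, with a median of 0.67. Over all genes tested 1.32% rose. Srebf1 encodes SREBP-1, the transcription factor of fatty acid synthesis, and its SREBP-1c form is the one known to answer LXR. It was at 86.0, 70.4, 86.2 and 75.6 CPM and rose to 244, 217 and 252 CPM (1.58 ± 0.26; edgeR adjusted p = 0.00124). The groups lay far apart, while the counted transcript does not tell its start sites apart.

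The desaturase genes Scd1 and Scd2 had the largest rises of the list. Scd1, which puts a double bond into saturated acyl-CoA, went from 113, 63.2, 124 and 65.6 CPM to 593, 488 and 650 CPM, a rise of 2.66 ± 0.21 (edgeR adjusted p = 2.43e-08). Its paralog Scd2 was at 931, 483, 907 and 531 CPM and then 3015, 2617 and 3114 CPM (2.03 ± 0.21; adjusted p = 2.3e-06). In both genes the unstimulated libraries of mice 2 and 4 stood well below those of mice 1 and 3, and mouse 2 was again the lowest after GW3965. Scd1 shares no exon length with another gene, and Scd2 shares 1.1%, with Mir5114. How the authors' counting treated reads that match both paralogs is not stated in the labels. Fads2, the delta-6 desaturase, had the same order of mice, at 36.5, 14.5, 38.8 and 18.6 CPM and then 76.5, 47.5 and 87.3 CPM (1.39 ± 0.27; adjusted p = 0.00495). Fads1, the delta-5 desaturase, rose by 0.28 ± 0.07 (adjusted p = 0.0268). That call was lost without SGC0946 replicate 2 or 4 (0.101 and 0.107) and without SGC0946+GW3965 replicate 1 or 3 (0.159 and 0.0957).

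For fatty acid synthesis itself, Fasn was at 170, 91.7, 136 and 88.6 CPM and reached 508, 330 and 549 CPM (1.93 ± 0.25; edgeR adjusted p = 4.89e-05). Mouse 2 was low in both groups, and the lowest treated library was still well above the highest unstimulated one. Acaca, the acetyl-CoA carboxylase that makes malonyl-CoA, rose by 1.03 ± 0.14 (adjusted p = 0.000147), and Mid1ip1, whose product activates that enzyme, by 0.73 ± 0.05 (adjusted p = 6.93e-09). Of the exon length of Mid1ip1, 25.5% is shared with Gm14493. Acly, which supplies the acetyl-CoA, was at 179 to 227 CPM and 192 to 247 CPM and did not pass (0.14 ± 0.09), nor did the elongase genes Elovl1 (0.18 ± 0.10) and Elovl6 (0.28 ± 0.27). Elovl5, the elongase of polyunsaturated fatty acids, rose by 0.59 ± 0.06 (adjusted p = 4.76e-06). Me1, Acss2, Acacb, Gpam and Aacs did not pass either, and Mlxipl, Pnpla3 and Thrsp were under the count minimum.

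Lpcat3 and Acsl3, of the same list, act on fatty acids already made. Lpcat3, which inserts polyunsaturated chains into phospholipids, went from 79.9, 57.5, 75.7 and 67.3 CPM to 164, 143 and 181 CPM (1.22 ± 0.09; edgeR adjusted p = 2.43e-08). Of its exon length, 10.2% is shared with Emg1. Acsl3, which activates fatty acids at lipid droplets and the endoplasmic reticulum, went from 49.6, 33.8, 51.4 and 34.4 CPM to 106, 92.2 and 106 CPM (1.26 ± 0.12; adjusted p = 1.12e-06). As with the desaturases, mice 2 and 4 had the lowest unstimulated values of both genes. Within mice 1 to 3 the list medians of log2(CPM + 0.1) differences were 0.70, 0.67 and 0.47 for lipogenic genes and 0.88, 0.86 and 0.79 for efflux genes.

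Of 11 immune and phagocytic targets of LXR listed, 9 were tested and 5 rose, with a median of 0.38. Cd38, an ectoenzyme that consumes NAD, rose by 1.15 ± 0.27 (adjusted p = 0.025), from 9.90, 17.0, 8.40 and 13.5 CPM to 19.5, 44.3 and 18.1 CPM. Mouse 2 was the highest in both groups. Mertk, a receptor for engulfing apoptotic cells, was at 120, 162, 121 and 169 CPM and then 175, 242 and 171 CPM (0.46 ± 0.11; adjusted p = 0.033). Cd5l, an LXR-induced survival factor also called AIM, rose by 0.38 ± 0.09 (adjusted p = 0.0318), and Rara, the retinoic acid receptor gene, by 0.52 ± 0.10 (adjusted p = 0.0061). These 4 genes kept their groups apart, but the calls of 3 rested on single libraries.

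Without SGC0946 replicate 1, 3 or 4 the adjusted p of Cd38 was 0.0598, 0.0609 and 0.057, and without SGC0946+GW3965 replicate 2 it was 0.179 (edgeR in each case). That of Mertk was 0.0823 without SGC0946 replicate 1, 0.0807 without SGC0946 replicate 3 and 0.156 without SGC0946+GW3965 replicate 2. For Cd5l it was 0.0729 and 0.103 without SGC0946 replicate 3 or 4 and 0.12 and 0.096 without SGC0946+GW3965 replicate 1 or 2. Vegfa, Smpdl3a and Ccr7 did not pass, and Spib and Arg1 were under the count minimum. Tgm2, the transglutaminase of apoptotic cell clearance, was at 158 to 187 CPM and 128 to 163 CPM (-0.25 ± 0.09; adjusted p = 0.176) and was called lower with mouse as a block (0.0433). A share of 21.8% of its exon length lies in other genes.

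The receptors were present and none of the 17 receptor and co-regulator genes passed, with changes between -0.19 and 0.13. Nr1h2 was at 74.8, 73.3, 74.4 and 78.4 CPM and at 68.0, 72.1 and 64.9 CPM (-0.14 ± 0.06; edgeR adjusted p = 0.289). Nr1h3 was at 9.12, 8.12, 9.57 and 10.4 CPM and at 10.9, 8.71 and 9.57 CPM (0.06 ± 0.13; adjusted p = 0.878), a direction that turned to -0.03 without SGC0946+GW3965 replicate 1. Per length the counted transcript of Nr1h2 stood above that of Nr1h3, 34.1 ± 0.974 against 5.02 ± 0.601 RPKM with GW3965 (SD, n = 3). Other transcripts of either gene are not in these values, so the levels of the whole genes were not compared. Rxra, the partner receptor, stood at 45.0 to 64.8 and 42.3 to 52.6 CPM, and the co-repressor gene Ncor1 at 216 to 247 and 212 to 243 CPM. Neither differed beyond the spread of the libraries. Dot1l, the target of the inhibitor, was at 53.8, 44.9, 64.7 and 44.1 CPM and at 62.9, 45.0 and 78.3 CPM (0.26 ± 0.14; adjusted p = 0.417), and passed without SGC0946+GW3965 replicate 2 (0.0413). None of the 13 tested genes of its complex and elongation partners passed.

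Genes of the SREBP-2 system, which senses low cholesterol, showed 1 call in 8. Insig1, whose product holds SREBPs in the endoplasmic reticulum, was at 104, 66.9, 100 and 68.4 CPM and rose to 137, 108 and 131 CPM (0.56 ± 0.14; edgeR adjusted p = 0.0408). Its call was lost without SGC0946 replicate 2 or 4 (0.136 and 0.149), the libraries in which it was lowest, and without SGC0946+GW3965 replicate 1 or 3 (0.209 and 0.133). Srebf2 itself was at 175, 133, 174 and 141 CPM and at 151, 132 and 178 CPM (-0.02 ± 0.09; adjusted p = 0.963). None of 21 enzymes of cholesterol synthesis passed, and their median was 0.07. It was 0.22 without SGC0946 replicate 1, 0.22 without SGC0946+GW3965 replicate 2 and -0.003 without SGC0946 replicate 4, where its sign turned.

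In lipid storage and uptake, 3 of 16 tested genes rose and none fell, with a median of 0.19. With mouse as a block 7 rose. Plin2, the coat protein of lipid droplets, was at 607, 508, 664 and 533 CPM and rose to 853, 720 and 938 CPM (0.53 ± 0.09; edgeR adjusted p = 0.00151). Msr1, the scavenger receptor A gene, rose by 0.49 ± 0.11 (adjusted p = 0.0152), and Lipa, the lysosomal acid lipase gene, by 0.32 ± 0.09 (adjusted p = 0.0497). Msr1 was lost without SGC0946 replicate 2 or 4 (0.0567 and 0.0533) or SGC0946+GW3965 replicate 3 (0.133). Lipa was lost without SGC0946 replicate 2 or 4 (0.165 and 0.153) or SGC0946+GW3965 replicate 1 or 3 (0.3 and 0.17). Cd36, a scavenger receptor gene, was at 552, 334, 650 and 394 CPM and at 737, 449 and 830 CPM and did not pass (0.48 ± 0.20; adjusted p = 0.291). Again mice 1 and 3 stood above mouse 2 in each group. Of 8 tested PPAR receptors and targets, Cpt1a alone rose, from 113 to 121 CPM to 145 to 152 CPM (0.32 ± 0.05; adjusted p = 0.000231); its product brings fatty acids into mitochondria for oxidation.

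**Figure D2:**
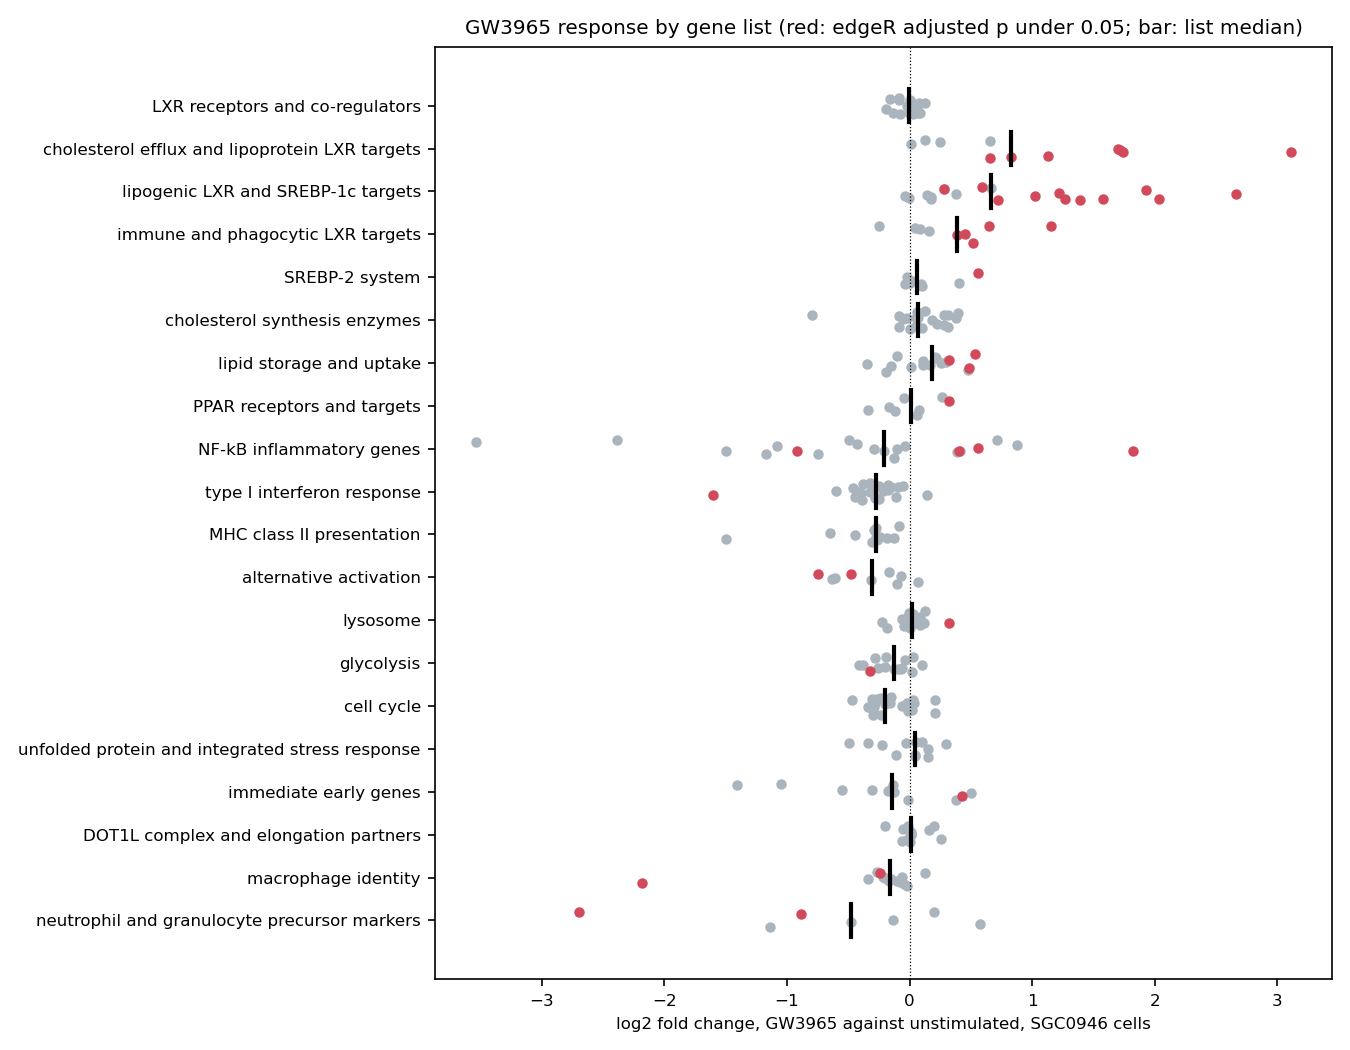
Log2 fold change by GW3965 in SGC0946 cells for each tested gene of the 20 lists with 7 or more tested genes. Points are genes, red where the edgeR adjusted p is under 0.05, and vertical bars are list medians. The bars of the efflux and lipogenic lists lie at 0.83 and 0.67, while those of the receptor list and the DOT1L complex list lie at 0.00 and 0.01.

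Inflammatory genes did not move in 1 direction. Among 21 NF-kB genes, 3 rose (Il1a, Ccl3 and Tnfaip3), Ccl5 fell and 17 did not pass, with a median of -0.21. Il1a, the cytokine interleukin-1α, went from 1.82, 1.49, 2.44 and 3.56 CPM to 7.20, 10.6 and 7.15 CPM (1.82 ± 0.28; edgeR adjusted p = 0.000586). Its exons share 11.2% of their length with Gm14023. Il1b, by contrast, was at 1.26 to 3.21 CPM and at 0.600, 1.55 and 0.705 CPM, overlapping and not called (-1.17 ± 0.45; adjusted p = 0.221). Tnfaip3, an inhibitor of NF-kB signalling, rose by 0.40 ± 0.09 (adjusted p = 0.0152), and the chemokine gene Ccl3 by 0.56 ± 0.14 (adjusted p = 0.0392). Tnf, Ccl2, Ccl4 and Ccl7 did not pass.

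The chemokine gene Ccl5 fell from 6.69, 7.08, 5.60 and 7.84 CPM to 4.37, 3.02 and 3.42 CPM (-0.92 ± 0.20; edgeR adjusted p = 0.0153). Its call was lost without SGC0946 replicate 4 (0.0597) and without SGC0946+GW3965 replicate 2 or 3 (0.0564 and 0.0681). That of Tnfaip3 was lost without SGC0946 replicate 2 (0.0589) or SGC0946+GW3965 replicate 3 (0.0857). That of Ccl3 was lost without SGC0946 replicate 2 or 4 (0.128 and 0.0899) or SGC0946+GW3965 replicate 1 or 3 (0.194 and 0.226). Il1a kept its call without any 1 of the 7 libraries.

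Of 24 interferon-response genes Cxcl10 fell and the other 23 did not pass, while 23 of the 24 had a change below 0 and the median was -0.27. That median was -0.56 without SGC0946+GW3965 replicate 1, -0.18 without replicate 2 and -0.14 without replicate 3 of that group. Cxcl10, a chemokine for T cells, was at 9.55, 8.12, 8.85 and 19.5 CPM and fell to 4.63, 3.80 and 2.92 CPM (-1.60 ± 0.27; edgeR adjusted p = 0.00152). The unstimulated library of mouse 4 stood apart from the other 3. Mx1 (-0.44 ± 0.22), Ifit1 (-0.46 ± 0.29) and Isg15 (-0.38 ± 0.26), antiviral effectors, had overlapping groups, and in each of them mouse 3 was the lowest with GW3965 and mouse 1 the highest. None of 12 MHC class II genes passed, though all 12 had a change below 0 (median -0.27; -0.14 without SGC0946+GW3965 replicate 1 and -0.18 without SGC0946 replicate 4).

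Alternative activation genes had a median of -0.31 and 2 of 9 fell. The median was -0.15 without SGC0946 replicate 2, -0.15 without SGC0946+GW3965 replicate 1, -0.52 without SGC0946+GW3965 replicate 2 and -0.19 without SGC0946+GW3965 replicate 3. Both are scavenger receptors. Stab1 was at 536, 599, 450 and 602 CPM and fell to 392, 418 and 370 CPM (-0.48 ± 0.10; edgeR adjusted p = 0.00875), a call lost without SGC0946+GW3965 replicate 3 (0.0544). Cd163, the haemoglobin scavenger receptor gene, was at 14.1, 20.7, 15.0 and 20.8 CPM and fell to 10.5, 11.7 and 9.26 CPM (-0.75 ± 0.14; adjusted p = 0.00368). Mrc1, the mannose receptor gene, was at 1136 to 1336 and 1030 to 1171 CPM and did not pass (-0.17 ± 0.08).

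**Figure D3:**
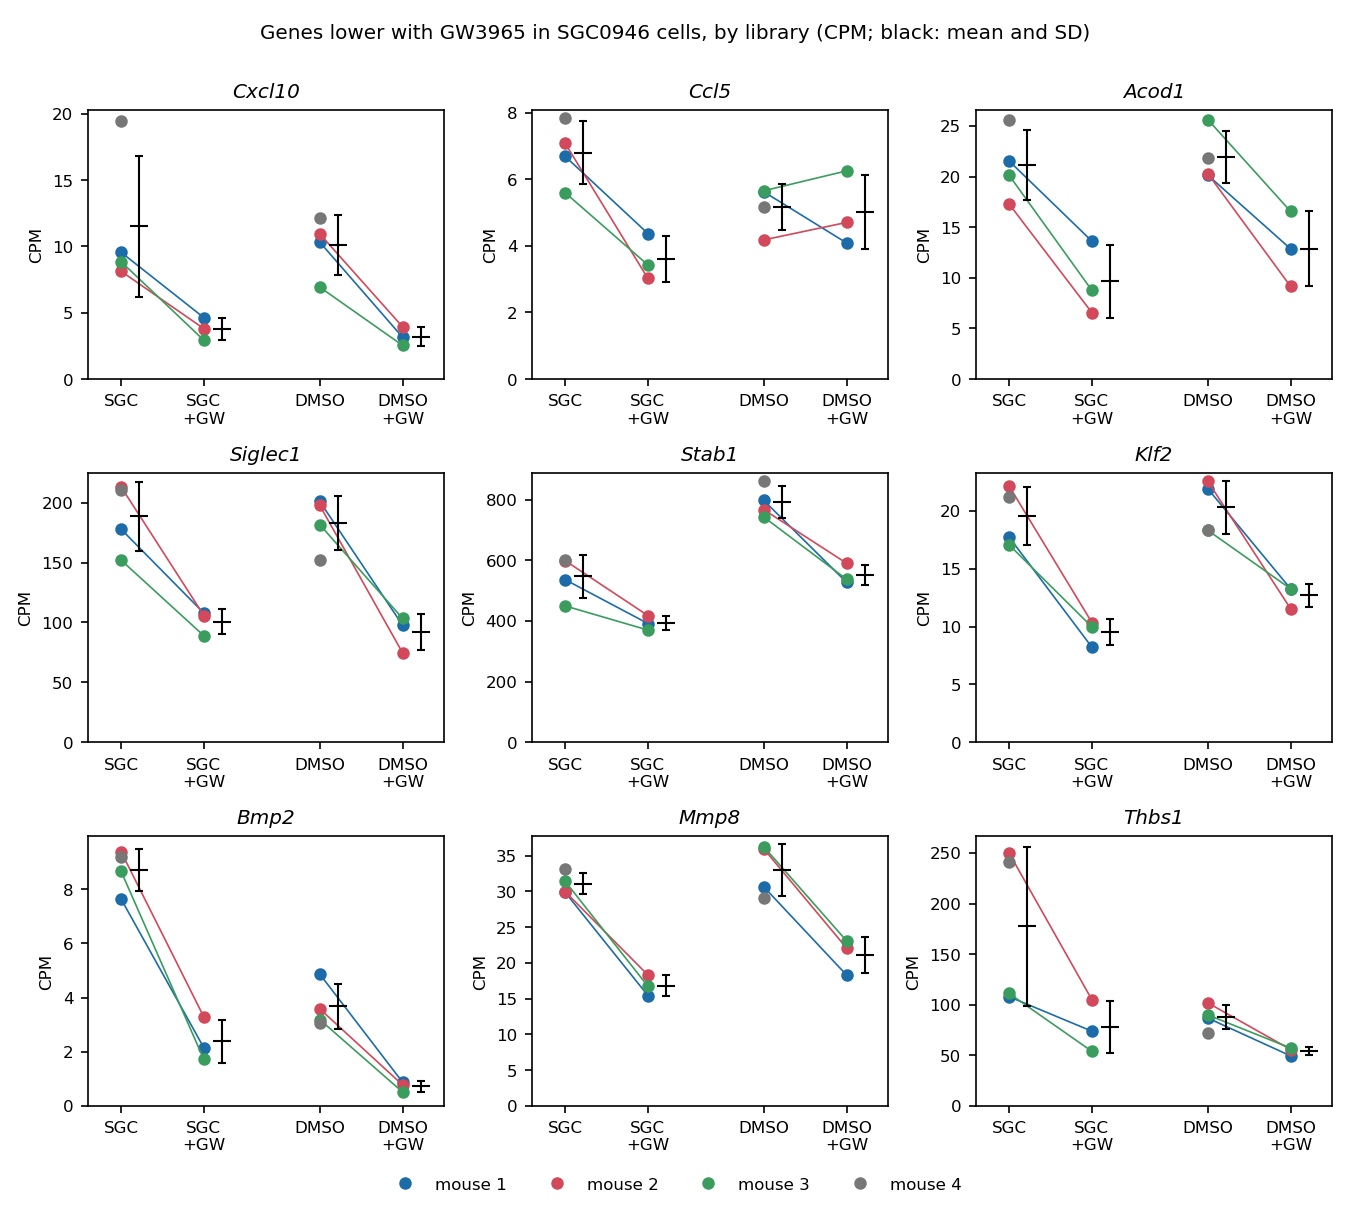
CPM of 9 genes called lower with GW3965 in SGC0946 cells, drawn as points per library coloured by mouse, with lines joining a mouse and black marks for mean and SD (n = 4 unstimulated, n = 3 with GW3965), for the SGC0946 (SGC) and DMSO arms. In all 9 panels the SGC0946+GW3965 (SGC +GW) libraries lie below the SGC0946 libraries, and for Ccl5 the DMSO arm had means of 5.16 and 5.01 CPM.

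Outside the lists, among genes with separate groups and a mean of 5 CPM or more where higher, the highest rises were in Mir5114, Dmpk, Eepd1, Rab39, Ccdc148, Utp14b, Fbxo32 and Dusp6. Mir5114 lies wholly within Scd2, so its rise (1.84 ± 0.20) cannot be told apart from that of Scd2 reads. Utp14b shares exon sequence with Acsl3. Eepd1, an endonuclease-domain protein described as an LXR target that aids efflux through ABCA1, went from 26.0, 30.8, 27.0 and 24.5 CPM to 71.4, 90.0 and 68.3 CPM (1.50 ± 0.10; edgeR adjusted p = 4.63e-09). Dmpk, a kinase gene, rose from 1.82, 1.49, 1.44 and 1.64 CPM to 5.48, 3.97 and 6.55 CPM (1.72 ± 0.21; adjusted p = 2.51e-05), and Fbxo32, a ubiquitin ligase subunit, from 16.6 to 22.1 CPM to 31.4 to 48.0 CPM (1.10 ± 0.14; adjusted p = 3.07e-05). Dusp6, a phosphatase that switches off ERK, rose by 1.10 ± 0.25 (adjusted p = 0.0187) and was lost without SGC0946 replicate 2 or 4 (0.069 and 0.0623) or SGC0946+GW3965 replicate 3 (0.164). Rab39 and Ccdc148 rose by 1.46 ± 0.24 and 1.34 ± 0.22. The called genes with the highest CPM outside the lists were Vat1, Tnfaip2, Cfp, Atp6v0a1 and Csf2rb2, and they rose by 0.33 to 0.69. Of these Tnfaip2 went from 457, 428, 443 and 423 CPM to 729, 669 and 715 CPM (adjusted p = 1.12e-06). Atp6v0a1, a subunit of the lysosomal proton pump, was lost without SGC0946 replicate 2 or 4 (0.137 and 0.145) or SGC0946+GW3965 replicate 1 or 3 (0.103 and 0.278).

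Under the same limits (outside the lists, separate groups, 5 CPM or more), the deepest falls were in Bmp2, Thbs1, Acod1, Slco2b1, Klf2, Gda, Siglec1 and Cytip. Bmp2, a secreted growth factor, fell from 7.64, 9.39, 8.67 and 9.20 CPM to 2.14, 3.28 and 1.71 CPM (-1.86 ± 0.22; edgeR adjusted p = 2.04e-05). Acod1, the enzyme that makes itaconate, fell from 21.5, 17.3, 20.1 and 25.6 CPM to 13.6, 6.56 and 8.76 CPM (-1.13 ± 0.19; adjusted p = 0.00145). Klf2, a transcription factor that restrains myeloid activation, fell by 1.04 ± 0.15 on the log2 scale (adjusted p = 0.000354). Siglec1, a sialic acid receptor, fell from 178, 213, 152 and 211 CPM to 108, 106 and 88.9 CPM (-0.90 ± 0.13; adjusted p = 0.000383), and Gda, the guanine deaminase gene, by 0.92 ± 0.14 (adjusted p = 0.000746).

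Thbs1, the matrix protein thrombospondin-1, was at 108, 250, 111 and 241 CPM and at 73.8, 105 and 53.9 CPM (-1.20 ± 0.29; edgeR adjusted p = 0.0278). Mice 2 and 4 stood far above mice 1 and 3 before GW3965, and the highest treated library lay just under the lowest unstimulated one. Its call was lost without SGC0946 replicate 2 or 4 (0.102 and 0.106) or SGC0946+GW3965 replicate 1 or 3 (0.131 and 0.147). That of Slco2b1, an organic anion transporter gene (-1.07 ± 0.21), was lost without SGC0946+GW3965 replicate 1 (0.0765). That of Cytip (-0.87 ± 0.21) was lost without SGC0946 replicate 2 or 4 (0.0958 and 0.134) or SGC0946+GW3965 replicate 1 or 3 (0.215 and 0.0601).

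The remaining lists held few calls. In cell cycle (23 genes) and the unfolded protein response (12 genes) no gene passed, with medians of -0.20 and 0.04. The sign of neither median held. The cell cycle median ran from -0.38 without SGC0946+GW3965 replicate 3 to 0.03 without SGC0946+GW3965 replicate 2, with -0.33 without SGC0946 replicate 2 and -0.11 and -0.10 without SGC0946 replicates 1 and 3. That of the unfolded protein response ran from -0.03 (without SGC0946 replicate 4) to 0.10 (without SGC0946 replicate 3). Of 15 glycolysis genes Pfkl, a phosphofructokinase, fell by 0.32 ± 0.07 (edgeR adjusted p = 0.0107; 0.101 without SGC0946+GW3965 replicate 1), of 16 lysosome genes only Lipa rose, and of 12 immediate early genes Atf3 rose by 0.43 ± 0.09 (adjusted p = 0.0152). Atf3 was lost without SGC0946 replicate 2 or 4 (0.0563 and 0.0574) or SGC0946+GW3965 replicate 1 or 3 (0.0844 and 0.108). The cells carried the macrophage label in their RNA: the 14 identity genes summed to 17940.74 to 22149.97 CPM unstimulated and 17171.80 to 19423.33 CPM with GW3965. Lyz2, Csf1r, Cd68 and Adgre1 did not pass. The median change of the 14 identity genes was -0.157 (-0.25 to -0.099 over the alternatives), and 1 of the 14 had a change above 0. Cx3cr1, the fractalkine receptor gene, fell from 1.86 to 2.71 CPM to 0.685, 0.173 and 0.705 CPM (-2.18 ± 0.38; adjusted p = 0.00175). Itgam fell by 0.24 ± 0.06 (adjusted p = 0.0473), a call lost without any 1 of 6 libraries (SGC0946 replicates 2, 3 and 4 with 0.131, 0.0722 and 0.136; SGC0946+GW3965 replicates 1, 2 and 3 with 0.23, 0.0775 and 0.0704), and 68.7% of its exon length is shared with another gene.

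Markers of other cells were at low levels. The 16 granulocyte markers summed to 78.17 to 106.49 CPM and with GW3965 to 52.34 to 73.08 CPM; 7 of the 16 were tested, and their part in the other results was not tested. Most of that sum is Csf3r and Mmp8. Mmp8, the neutrophil collagenase, fell from 29.9 to 33.1 CPM to 15.4, 18.3 and 16.7 CPM (-0.89 ± 0.11; edgeR adjusted p = 3.07e-05), while Csf3r did not pass (-0.48 ± 0.15). Ltf, a granule protein, fell from 0.608, 0.820, 1.08 and 2.28 CPM to 0.171, 0.259 and 0.101 CPM (-2.69 ± 0.61; adjusted p = 0.0185), a call lost without SGC0946 replicate 4 (0.0748) or SGC0946+GW3965 replicate 1 or 3 (0.101 and 0.0867). The defining markers Elane, Mpo and Ly6g were each at or under 0.403 CPM in all 7 libraries. Of 2 tested megakaryocyte markers Pf4, also made by macrophages, fell by 0.32 ± 0.08 (adjusted p = 0.0314; 0.0757 and 0.0812 without SGC0946 replicate 1 or 4; 0.113 without SGC0946+GW3965 replicate 2). None of the tested markers of stromal cells (2), mast cells (1), T or NK cells (2), B cells (2) and dendritic cells (4) passed, and no erythroid marker was tested. In bulk libraries fewer cells of a type and less RNA per cell cannot be told apart.

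The DMSO arm gives the same contrast without the inhibitor, in libraries of the same mice. There GW3965 changed 306 genes (2.55% of those tested; edgeR adjusted p under 0.05), 162 higher (1.35%) and 144 lower (1.2%). The lists overlapped in 156 genes, which is 53.6% of the SGC0946 calls and 51.0% of the DMSO calls, with none called in opposite directions. Of the 291 genes called with SGC0946, 287 had the same sign with DMSO, against 71.1% of all genes tested. The other 4 were Cfb, Egln3, Plaat3 and Plpp5, all lower with SGC0946. Of these, the SGC0946 call of Cfb was lost under 12 of 18 alternatives, that of Egln3 under 12 and that of Plaat3 under 6. Cfb lost it without SGC0946 replicate 1, 2, 3 or 4 (edgeR adjusted p = 0.0729, 0.11, 0.0567 and 0.0812) or SGC0946+GW3965 replicate 1 or 2 (0.374 and 0.0511). Egln3 lost it without SGC0946 replicate 2, 3 or 4 (0.155, 0.0522 and 0.171) or SGC0946+GW3965 replicate 1, 2 or 3 (0.0897, 0.127 and 0.133). Plaat3 lost it without SGC0946 replicate 2 or 4 (0.0504 and 0.0623) or SGC0946+GW3965 replicate 1 or 3 (0.0779 and 0.0915). The genes that rose with SGC0946 had a median change of 0.38 with DMSO, and those that fell one of -0.31. Because the 2 arms share mice, this agreement of signs and sizes is not independent between them. Deviations from the group means in GW3965 libraries of the same mouse correlated between arms at 0.706, 0.336 and 0.465 for mice 1 to 3. For different mice they lay between -0.517 and 0.148. Unlike the SGC0946 libraries, 3 of the 4 DMSO libraries and all 3 DMSO+GW3965 libraries carry the word reanalyzed in their titles, whose meaning is not stated in the labels, and its part in these values was not tested. The DMSO count was 176 without DMSO replicate 1, 155 without DMSO replicate 2, 175 without DMSO replicate 3, 125 without DMSO+GW3965 replicate 2, 122 without DMSO+GW3965 replicate 3, and 531 with mouse as a block. The near-equal counts of 291 and 306 come from a fit in which all 20 libraries share 1 estimate of the spread. Fitted on the compared groups alone, 66 genes rose and 22 fell with SGC0946, while 425 rose and 463 fell with DMSO. Pairs of libraries within a group differed by a chi-square of 5.1 to 14.4 per gene with SGC0946 and 3.09 to 6.24 with DMSO, LPS groups aside.

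**Figure D4:**
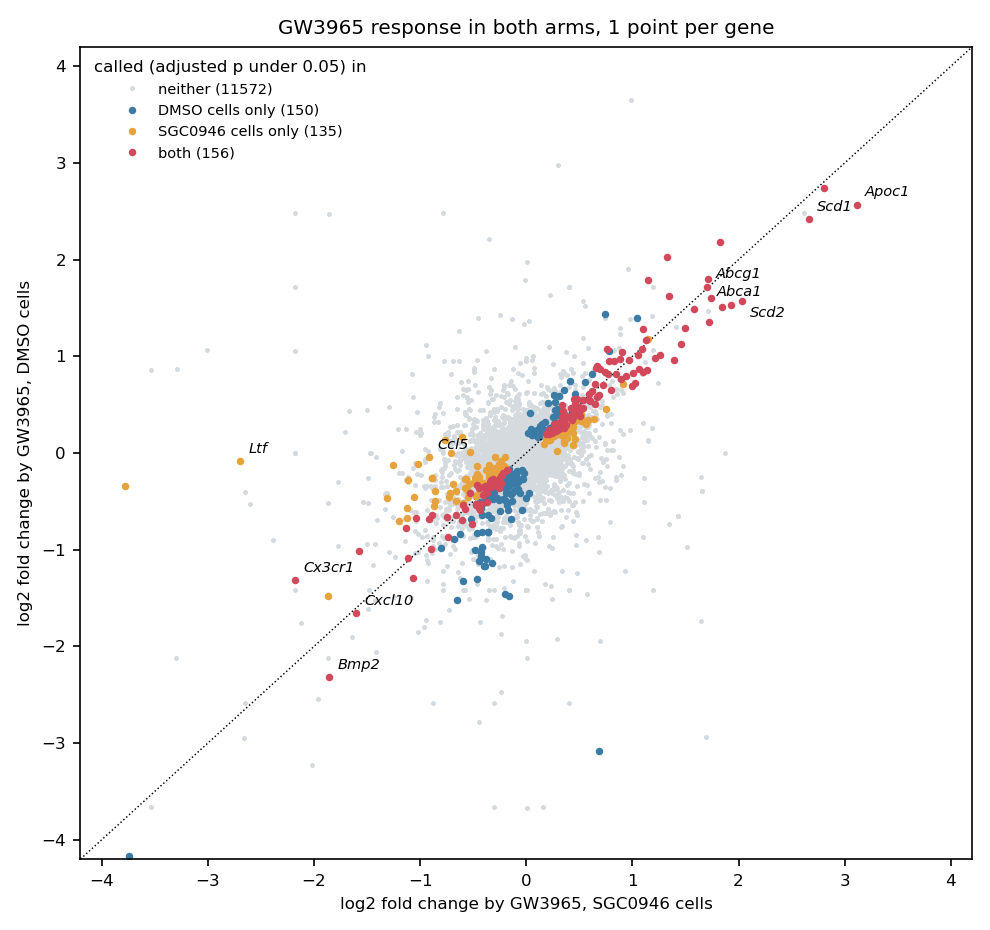
Log2 fold change by GW3965 in SGC0946 cells (x axis) and DMSO cells (y axis) for 12013 genes, 1 point per gene, coloured by where the gene was called, with the line of equal change dotted. The 156 genes called in both arms lie along that line, Scd1 at 2.66 and 2.42 among the highest.

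No gene passed a test of the difference between the arms. The test of the difference of the responses called 0 of 12013 genes (0%), with edgeR, with DESeq2 and with limma-voom, and the smallest edgeR adjusted p was 1.00. At an unadjusted p under 0.05 there were 291 genes with edgeR (2.42%), 216 with DESeq2 and 293 with limma-voom. With mouse as a block the test of the difference also called 0 genes higher and 0 lower. For the 291 genes called with SGC0946 the median 95% interval of the difference reached 0.26 to either side on the log2 scale. These intervals come from the fit without mouse as a block, so variation between mice is part of their width. For Abca1 the difference, SGC0946 minus DMSO, was -0.08 with an interval of -0.42 to 0.26, and for Abcg1 it was -0.02 with one of -0.22 to 0.18. The intervals of lipogenic genes were wider, as for Scd2 at 0.46 (-0.15 to 1.06), Fasn at 0.40 (-0.32 to 1.11) and Lpcat3 at 0.24 (-0.04 to 0.51). These intervals hold differences well above 0 as well as 0 itself.

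The unstimulated levels of the arms were not tested against each other and are given as values. Scd2 stood at 713 ± 239 CPM with SGC0946 and 1024 ± 138 CPM with DMSO, and after GW3965 at 2915 ± 263 and 3051 ± 80.7 CPM. Fasn stood at 122 ± 39.0 and 184 ± 17.2 CPM unstimulated and at 462 ± 117 and 531 ± 13.5 CPM with GW3965 (SD, n = 4 and 3). The interferon list had the most uneven pair of counts, 1 lower with SGC0946 and 11 lower with DMSO (medians -0.27 and -0.74). The SGC0946 median ran from -0.56 to -0.14 with 1 SGC0946+GW3965 library left out (replicates 1 and 3). Within mice 1 to 3 the list medians of log2(CPM + 0.1) differences were -0.645, -1.627 and -0.536 with DMSO. With SGC0946 they were -0.026, -0.242 and -0.734. The unstimulated libraries summed to 1301 to 2913 CPM over the list with DMSO and to 1649 to 2072 CPM with SGC0946. The median difference of the genes of this list was 0.53, 3 of them had an unadjusted p under 0.05 (Oas1a, Cmpk2 and Mx1) and none was called. The 5 genes with the smallest p of the difference were Ltf at -2.61 (95% interval -4.00 to -1.22), Plaat3 at -0.77 (-1.21 to -0.34), Palm at -0.90 (-1.44 to -0.36), Snhg3 at -0.66 (-1.08 to -0.24) and Egln3 at -0.89 (-1.47 to -0.32). None of these 5 was called. They were picked for the smallest p among 12013 genes, so their unadjusted intervals lie off 0 by that choice. All 5 were expressed at low levels, under 15 CPM in every one of the 14 libraries, and Snhg3 shares 86.3% of its exon length with other genes.

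**Figure D5:**
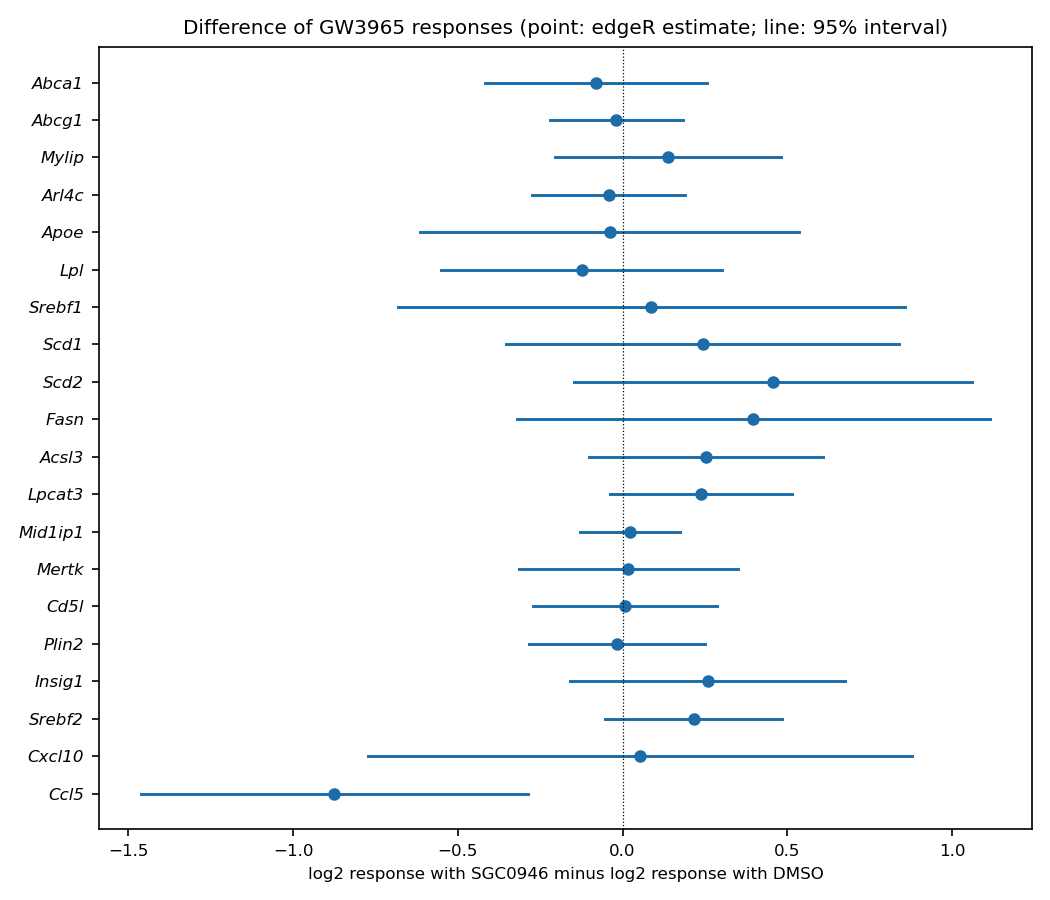
Difference of the GW3965 response, SGC0946 minus DMSO, on the log2 scale for 20 genes, with points for the edgeR estimate and lines for its 95% interval. The interval of Abcg1 is narrow (-0.22 to 0.18), that of Fasn wide (-0.32 to 1.11), and that of Ccl5 lies below 0 (-1.46 to -0.29) with an adjusted p of 1.00.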

How the data were processed

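RNA was sequenced as 50 bp single-end reads. STAR 2.5.2b, SAMtools 1.3.1 and build mm10 are named in the submitters' processing notes; for the counting step, neither program nor annotation nor strand setting is stated in the labels. The authors deposited raw counts and RPKM values per RefSeq transcript for all 20 libraries. Of 35745 transcripts, 305 had no gene name (1.17% of counts) and were left out. Each of 24342 symbols is represented by its most counted transcript, and these hold 57.3% of the counts. RPKM values are the authors' and are used only for levels per length.

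Counts of the 20 libraries were fitted in 1 model of group means with edgeR 4.0.16 (R 4.3.3; TMM scaling, filterByExpr with a minimum count of 10, quasi-likelihood F test), leaving 12013 genes, with Benjamini-Hochberg adjustment and a threshold of 0.05. SE is the absolute log2 fold change over the square root of F. Fits were tested on simulated data. These data held no effect of mouse, so they could not show how the fits behave where libraries share a mouse. Alternatives used DESeq2 1.42.0, limma 3.58.1 (voom), other scaling, filters and transcripts, only the compared groups, libraries left out, and mouse as a block. Replicate numbers are mouse numbers in the labels, and deviations of the same mouse correlated at 0.546 to 0.774 with SGC0946 and 0.308 to 0.777 with DMSO.

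The genes, lists and tests were chosen with earlier results of these data known. Named genes are a set of 20 LXR and control genes, up to 4 called members of each list with the smallest p and up to 2 uncalled ones with the highest CPM, the 8 highest and 8 lowest genes with separate groups and at least 5 CPM outside the lists, the 5 with the smallest p of the difference, and the 5 most abundant called genes outside the lists. A further 26 genes were added after their values were seen: called list members (among them Apoc1, Apoc2, Lpl, Acaca, Elovl5, Fads1 and Fads2) and those of the closing section. Promoter letters came from RefSeq, GRCm38.p6. Some genes of these lists are not reported here.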

Additional observations from a re-analysis of the deposited data

Results flagged for a closer look

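In 142 groups of 4 unstimulated SGC0946 libraries, 1 for each gene checked, a single library stood apart from the other 3 for 4 genes (its gap to the nearest over the whole range was above 0.829). Chance alone gives this in about 1 in 20 groups. Cxcl10 was at 19.46 CPM in SGC0946 replicate 4 and at 8.12 to 9.55 CPM in the others. Ncor1 was at 247.0 CPM in SGC0946 replicate 2. Pdgfrb, a stromal marker, was at 0.2708 CPM in SGC0946 replicate 3, and Plpp3, a lipid phosphatase gene, was at 4.784 CPM in the same library.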

How the results depend on the processing

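Of 85 named genes called with SGC0946, 35 were called under every alternative, 50 lost the call under at least 1, and all 85 kept their sign. Among genes not called, Nr1h3 ranged from -0.0281 (without SGC0946+GW3965 replicate 1) to 0.14 and Srebf2 from -0.1343 to 0.0822 (without SGC0946+GW3965 replicate 2) with 1 library left out, and Srebf2 was also above 0 without SGC0946 replicate 1 (0.04) or 3 (0.04). Fitted on the compared groups alone, 66 genes rose and 22 fell with SGC0946. Leaving out 1 library gave 92 to 257 higher and 42 to 228 lower. Without mice 2 and 4, 75 rose and 34 fell, and without mouse 4, 88 and 47. With mouse as a block, 213 rose and 183 fell. In the DMSO arm higher counts were 253 with DESeq2, 425 on the compared groups, 245 with the block, 248 with the block and no mouse 4, and 79 to 147 with 1 library left out. Lower counts were 267 with DESeq2, 228 on library totals, 463 on the compared groups, 286 with the block, 326 with the block and no mouse 4, and 38 to 196 with 1 library left out. Efflux genes called higher were 4 on the compared groups. Immune targets called higher were 1 on the compared groups, 2 without mice 2 and 4, 3 without mouse 4 and 2 to 5 with 1 library left out, and 1 was called lower with the block. In cholesterol synthesis 1 gene rose with no filter on low counts, and 0 to 1 with 1 library left out. The cause of these changes was not tested. With 3 and 4 libraries per group, genes under the count minimum could not be tested.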

Other observations

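Further genes of sterol and phospholipid handling rose with GW3965 in SGC0946 cells. They were picked after their values were seen and carry no test as a group. Gramd1b, which moves cholesterol from the plasma membrane to the endoplasmic reticulum, went from 81.4 ± 3.54 to 156 ± 6.59 CPM (SD, n = 4 and 3; 0.94 ± 0.06 on the log2 scale; edgeR adjusted p = 4.97e-09). Acsl4, which activates arachidonic acid, went from 126 ± 14.8 to 262 ± 19.7 CPM (1.05 ± 0.08; adjusted p = 1.05e-08). Cert1, the ceramide transfer protein gene, went from 176 ± 5.74 to 251 ± 9.47 CPM (0.51 ± 0.05; adjusted p = 3.17e-07). Rnf145, a ubiquitin ligase gene known as an LXR target, rose by 0.97 ± 0.18 (adjusted p = 0.00312), and the carbonic anhydrase gene Car2 by 2.81 ± 0.30 (adjusted p = 5.29e-06).

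Some genes of complement, antigen processing and pattern recognition fell, again picked after their values were seen. Complement did not move as a whole. The complement gene Cfp rose by 0.35 on the log2 scale (edgeR adjusted p = 0.00136) and kept its call under all 18 alternatives. Tap1, a peptide transporter for MHC class I, went from 99.8 ± 5.29 to 74.1 ± 3.38 CPM (-0.43 ± 0.10; edgeR adjusted p = 0.0189). Its call was lost without SGC0946 replicate 4 (0.0534) or SGC0946+GW3965 replicate 1 or 3 (0.0894 and 0.0957). The complement gene C3 fell by 0.47 ± 0.10 (adjusted p = 0.0126), a call lost without SGC0946+GW3965 replicate 1 or 3 (0.0538 and 0.0704). Clec4e, the Mincle receptor gene, fell by 0.45 ± 0.10 (adjusted p = 0.0159). That call was lost without SGC0946 replicate 2 or 4 (0.0567 and 0.0597) or SGC0946+GW3965 replicate 3 (0.096).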
